A study of Homo sapiens with 4 samples.

Results

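MAOA and MAOB, the genes of monoamine oxidases A and B, were followed in MHCC97H cells, an established human hepatocellular carcinoma (HCC) line, after knockdown of UBXN1. They are 2 of the 61541 gene IDs in the count table and were found by symbol, and both were among the 16863 genes that passed the filter on low counts. MAOB was selected on its large fall in shUBXN1 against shCon, and MAOA is the only other monoamine oxidase gene. The values of both genes in this contrast are therefore given as a description, without a test.

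mRNA-seq covered 4 libraries of 1 cell line. In 2 libraries (shCon R1 and R2) the cells carried a control shRNA and are labelled with the control genotype, and in the other 2 (shUBXN1 R1 and R2) they carried an shRNA against UBXN1, which encodes a UBX-domain protein that binds ubiquitin and the p97 ATPase. The labels give no treatment or time beyond the shRNA, and the UBXN1 shRNA used for the sequenced cells is not given in the sources used here, so an effect of a single hairpin and an effect of less UBXN1 cannot be told apart. The labels do not say whether R1 and R2 came from separate cultures, so p-values measure only the spread between these libraries, which may be technical.

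Monoamine oxidases are flavoenzymes anchored by a C-terminal helix in the outer mitochondrial membrane, where they oxidise amines to aldehydes with release of hydrogen peroxide and ammonia. MAOA prefers serotonin and noradrenaline, MAOB prefers phenylethylamine, and both degrade dopamine and tyramine. Both enzymes are abundant in normal liver, where they clear amines from food, and MAOB is also the form of platelets and astrocytes. A covalently bound FAD is required for activity, and the aldehyde products are passed on to aldehyde dehydrogenases and reductases.

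Library totals were 23373700 to 27380508 counts. UBXN1 itself, on chromosome 11 (62676498 to 62679117, minus strand), had 1788 and 1817 counts in shCon and 416 and 433 in shUBXN1. On the CPM scale, counts relative to the library total after TMM scaling, its level was 72.2 ± 7.27 in shCon and 17.7 ± 1.19 in shUBXN1 (SD, n = 2 each), or 24.4% of the shCon mean, and the log2 fold change was -2.03 (SE 0.0963, edgeR quasi-likelihood adjusted p = 9.98e-10). All 11 hepatocyte markers passed the filter on low counts. Their summed level of 4640 to 5459 TPM, TPM being the count per base of gene length relative to that of the whole library, was 98.5% to 99.0% KRT8 and KRT18. The 9 others summed to 80.2 and 78.8 TPM in shCon and 51.5 and 48.9 TPM in shUBXN1. At an adjusted p under 0.05, 6 of these 9 were lower and 1 higher, beside 28.2% and 28.0% of all genes tested. ALB and TF fell to 25.6% of their shCon CPM, APOB to 27.8% and FGB to 6.06%, and TTR fell as well (edgeR log2 fold changes -1.97, -1.96, -1.85, -4.02 and -3.08). FGB had 20 and 9 counts in shUBXN1 and TTR 5 and 3, so both were near the floor there. HNF4A fell by 0.30 on the log2 scale and SERPINA1 rose by 0.40, while APOA1 and AFP were not called. Mitochondrially encoded genes took 5.28% and 5.59% of counts in shCon and 7.43% and 8.27% in shUBXN1.

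The genes lie tail to tail on the short arm of the X chromosome. In GENCODE 44 on GRCh38, MAOA runs from 43654907 to 43746817 on the plus strand and MAOB from 43766610 to 43882450 on the minus strand. Their ends are 19792 bases apart, so their start sites are at the outer ends of the pair. No annotated exon base of MAOA (0 of 13010) or of MAOB (0 of 2895) is shared with an exon of another gene, on either strand. The lengths deposited with the counts, 3931 bases for MAOA and 2570 for MAOB, equal those of the Ensembl canonical transcripts.

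The promoters were taken from RefSeq on GRCh38.p14, with the 250 bases before each start, because the regulation of the pair through GC boxes, the binding sites of Sp1-family factors, is well known and factors of that kind are described below. The MAOB promoter, at chrX:43882451-43882700 on the minus strand, is printed 5′ to 3′ in the direction of the gene. Capitals mark each GC box, GGGCGG on either strand.
MAOB promoter: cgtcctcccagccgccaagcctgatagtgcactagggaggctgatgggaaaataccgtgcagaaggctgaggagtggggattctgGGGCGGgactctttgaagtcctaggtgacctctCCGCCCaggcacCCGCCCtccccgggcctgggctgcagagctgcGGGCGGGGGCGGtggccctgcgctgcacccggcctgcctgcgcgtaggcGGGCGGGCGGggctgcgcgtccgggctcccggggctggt
It overlaps no annotated exon, is 72.0% G and C, and holds 21 CpG. It has 7 GC boxes, 5 in the direction of the gene and 2 reversed, which start 165, 132, 120, 88, 82, 39 and 35 bases before the gene, the last pair overlapping each other. Among 35116 RefSeq promoters of the same length, 42.6% hold at least 1 GC box and 1.12% hold 7 or more.

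The MAOA promoter, at chrX:43656049-43656298 on the plus strand, is 63.2% G and C with 17 CpG, and lies before the RefSeq start at 43656299, which is also that of the Ensembl canonical transcript. Longer annotated transcripts start upstream, so the window lies inside the GENCODE gene body, 5 of them have exon bases in it, and at least 1 covers all 250 bases. It holds 4 GC boxes, all reversed, and 7.63% of promoters hold 4 or more. They are shown in windows of 30 bases, again with the box in capitals, since the count and direction of the boxes differ between the promoters.
MAOA site 1, chrX:43656088-43656117: cagtacaagggtCCGCCCcgctctcagtgc
MAOA site 2, chrX:43656141-43656170: gaaacatcagctCCGCCCctgggcgctccc
MAOA site 3, chrX:43656183-43656212: aaagggttcgccCCGCCCacagtgcccggc
MAOA site 4, chrX:43656231-43656260: gaaggatcggctCCGCCCccgggctccccg
These boxes start 199, 146, 104 and 56 bases before the RefSeq start. A CACCC element was found 1 time in MAOA and 2 times in MAOB, and 54.7% of promoters hold at least 1. A TATA box (TATAAA, 10.7% of promoters) was in neither. After the values of EGR1 and GATA2 had been seen, an EGR1 element (GCGGGGGCG, 4.72% of promoters) and a GATA element (AGATAA, 9.17%) were added, both strands being searched as for the others. MAOB held 1 EGR1 element, 86 bases before the gene and overlapping the GC boxes that start at 88 and 82, and MAOA held none. The letters AGATAA were in neither promoter. Other letters around GATA were not counted, and tgatag is present in both promoters. A match is a description of these letters and not of a bound site.

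MAOB was the more abundant of the pair in shCon and the less abundant in shUBXN1 per unit of deposited length. MAOB (ENSG00000069535) had 2194 counts in shCon R1 and 1891 in shCon R2, against 313 in shUBXN1 R1 and 284 in shUBXN1 R2. This was 82.3 and 80.5 CPM in shCon and 12.6 and 12.1 CPM in shUBXN1. Both shUBXN1 libraries were far below both shCon libraries, with 67.8 CPM between the nearest values of the groups, while replicates lay within a ratio of 1.02 in shCon and 1.04 in shUBXN1. The means were 81.4 ± 1.27 CPM in shCon and 12.4 ± 0.365 CPM in shUBXN1 (SD, n = 2 each). The shUBXN1 mean was thus 15.2% of the shCon mean, 6.57-fold lower, and the log2 fold change was -2.72 (SE 0.0865).

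MAOA (ENSG00000189221) changed far less in the same libraries. It had 1308 and 1125 counts in shCon and 867 and 842 in shUBXN1, or 49.1 and 47.9 CPM in shCon and 35.0 and 36.0 CPM in shUBXN1. The groups did not overlap and were 11.9 CPM apart at their nearest values. The means were 48.5 ± 0.829 CPM and 35.5 ± 0.659 CPM (SD, n = 2 each), so that 73.2% of the shCon level was left, a 1.37-fold lower value with a log2 fold change of -0.45 (SE 0.0797).

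**Figure D1:**
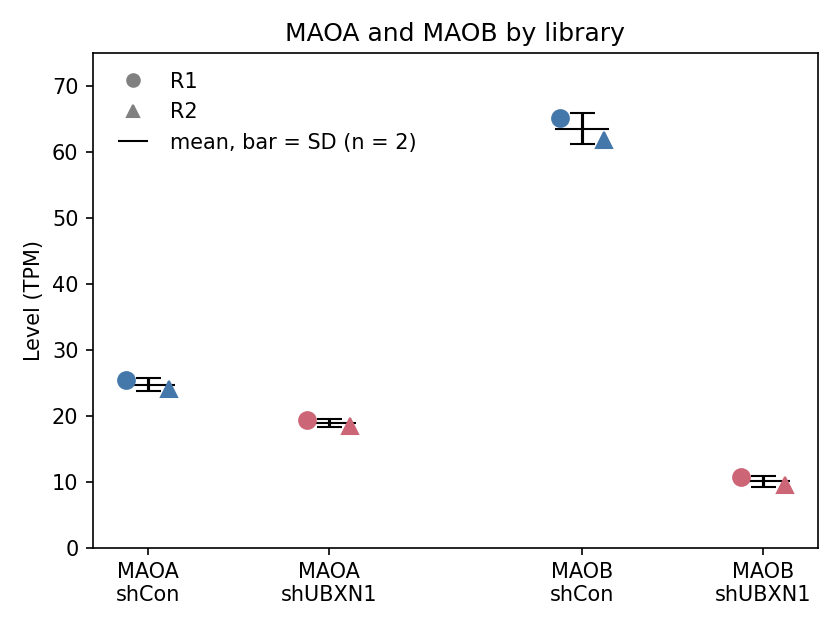
TPM of MAOA and MAOB (vertical axis, linear from 0) in each of the 4 libraries, with points for libraries, and group means with SD over n = 2 libraries. MAOB goes from 65.2 and 61.9 TPM in shCon to 10.7 and 9.50 TPM in shUBXN1, passing below MAOA, which goes from 25.4 and 24.1 to 19.3 and 18.4 TPM.

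Both genes were lower in shUBXN1 with groups that did not overlap. Among the 73 tested genes of the functional lists described below, 63 also had groups that did not overlap. The share over all genes tested was not computed, so nothing is read from the lack of overlap. For reading the falls, 28.2% of all genes tested were lower at an adjusted p under 0.05 and 28.0% were higher. At a 2-fold change with an unadjusted p under 0.05, 6.09% were lower and 11.8% higher. Of all genes tested, 0.457% fell more than MAOB, which had rank 78, and 21.8% fell more than MAOA, which had rank 3683. Since MAOB was selected on this contrast, its rank is no evidence of its own. Counting error alone was 2.13% to 5.93% of the value for MAOB and 2.77% to 3.45% for MAOA. In RNA from whole cultures, fewer cells with the transcript and less transcript per cell cannot be told apart.

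Levels of the 2 genes can be set side by side only per length, on the TPM scale. MAOB was at 65.2 and 61.9 TPM in shCon and 10.7 and 9.50 TPM in shUBXN1, and MAOA at 25.4 and 24.1 TPM in shCon and 19.3 and 18.4 TPM in shUBXN1. The level of MAOB was above that of 81.5% of the protein-coding genes tested in shCon and of 36.7% in shUBXN1, whereas MAOA was above 60.2% and 52.4%. From highest to lowest, the order of levels was MAOB in shCon, MAOA in shCon, MAOA in shUBXN1 and MAOB in shUBXN1. Each neighbouring pair of values in this order was further apart than its SD, the closest being MAOA in shCon (24.7 ± 0.946 TPM) and in shUBXN1 (18.9 ± 0.641 TPM).

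Within a library, MAOB made up 72.0% of the summed MAOA and MAOB level in both shCon libraries, and 35.6% and 34.0% in shUBXN1 R1 and R2. The group means were 72.0% ± 0.0299 and 34.8% ± 1.09 (SD, n = 2 each), a difference of -37.2 percentage points. MAOB was 2.57 times MAOA in each shCon library, and MAOA was 1.81 and 1.94 times MAOB in shUBXN1. The summed level of both genes went from 90.6 and 85.9 TPM in shCon to 30.0 and 27.9 TPM in shUBXN1, so that 32.8% of the shCon mean was left.

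**Figure D2:**
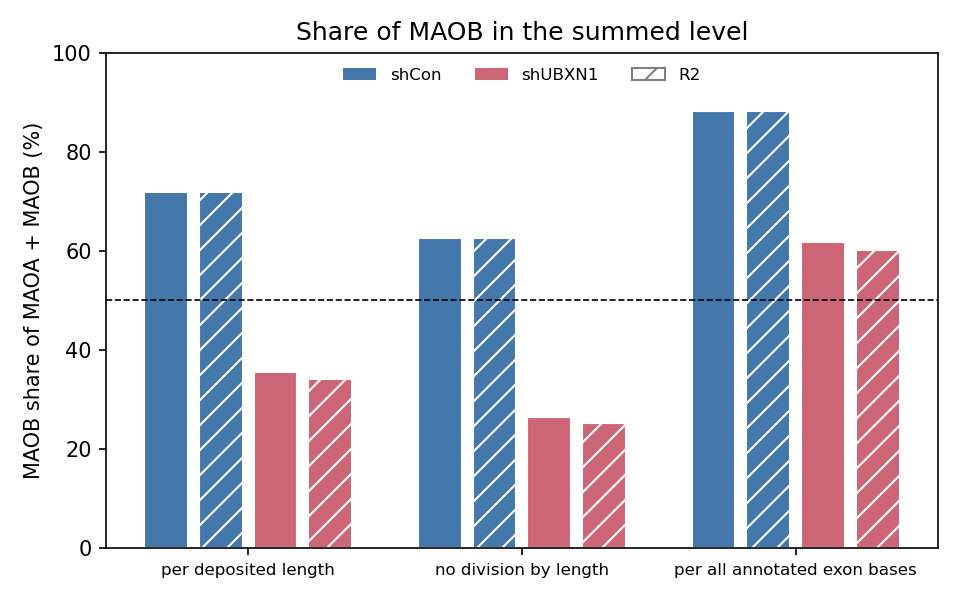
MAOB as a percentage of the summed MAOA and MAOB level (vertical axis, linear) in each of the 4 libraries, as bars for 3 choices of length, R2 hatched, with a dashed line where both genes are equal. The shCon libraries lie together near 72.0% on the deposited length, and the shUBXN1 libraries at 35.6% and 34.0%.

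The length scales the ratio of the genes by the same factor in every library, so it cannot turn the direction of this shift, but it decides the order of the genes in shUBXN1. Without division by length the share was 62.6% and 62.7% in shCon and 26.5% and 25.2% in shUBXN1. With all annotated exon bases as the length, a choice added after the data were seen, it was 88.3% in both shCon libraries and 61.9% and 60.3% in shUBXN1, so MAOB stayed 1.62 and 1.52 times above MAOA there. The long annotated exons of MAOA are the source of this difference between scales, 13010 bases against the 3931 deposited.

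The enzymes around monoamine oxidase were described with 8 functional lists that hold 89 genes, 73 of them tested. At an adjusted p under 0.05, 31 of the 73 (42.5%) were lower in shUBXN1 and 16 (21.9%) were higher, beside the 28.2% and 28.0% of all genes given above. At a 2-fold change, 8 (11.0%) were lower and 7 (9.59%) higher, beside 6.09% and 11.8%. The median log2 fold change of the lists was -0.09, and that of all genes tested 0.02. Removing each library's trend on GC content moved the calls to 10 higher and 35 lower, so that the higher share of the calls went from 34.0% to 22.2%, while over all genes tested it went from 49.9% to 42.4%. Without shCon R2, 9 were higher and 25 lower. The lists were not tested as sets. Each count of a single list below rests on 3 to 13 tested genes and stands beside the same 28.2% lower and 28.0% higher of all genes. Up to 4 genes per list were named by abundance, and further list members are named below after their values were seen.

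Genes of tetrahydrobiopterin, the cofactor of amine synthesis, were mostly a little lower. Of 12 listed genes of amine synthesis and its cofactor, 8 were tested, of which 5 fell and 2 rose. TH, TPH2, PNMT and HDC did not pass the filter on low counts, with at most 10.18 counts in any library. TPH1 averaged 0.363 CPM in shCon and 0.577 CPM in shUBXN1 and was not called. DDC, the decarboxylase that makes dopamine and serotonin from their amino acid precursors, was at 54.6 and 58.4 CPM in shCon and 38.6 and 45.8 CPM in shUBXN1 (log2 fold change -0.42, SE 0.0907, edgeR adjusted p = 0.0012). PCBD1, which recycles the cofactor, went from 46.7 and 51.5 CPM to 26.4 and 27.9 CPM (-0.85, SE 0.0876, adjusted p = 1.49e-06). SPR, the last enzyme of cofactor synthesis, fell by 0.26 on the log2 scale and QDPR, which also recycles it, by 0.29. The call of SPR was lost without shCon R2 (adjusted p = 0.173), and that of QDPR with DESeq2 (adjusted p = 0.0931) and under several other settings. PTS fell by 0.39. GCH1, the first enzyme of cofactor synthesis, rose from 1.76 and 2.09 CPM to 4.73 and 6.54 CPM (log2 fold change 1.55, edgeR adjusted p = 0.000164). DBH, which turns dopamine into noradrenaline, had 0 counts in both shCon libraries and 0.768 and 0.683 CPM in shUBXN1, at least 6.04-fold higher against a floor of 3 counts per library.

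Few amine transporters were detected in these cells. Of 9, 3 passed the filter on low counts, and all 6 others had at most 8 counts in any library. SLC22A3, a low-affinity carrier of organic cations that takes up monoamines, had the most counts, at 91.9 and 90.4 CPM in shCon and 89.9 and 74.6 CPM in shUBXN1, and did not pass the test (log2 fold change -0.15, SE 0.0874, edgeR adjusted p = 0.169), though it did without shUBXN1 R1 (-0.29). SLC29A4, a plasma membrane monoamine transporter, fell from 14.6 and 14.1 CPM to 8.16 and 8.93 CPM (-0.75, SE 0.132, adjusted p = 0.000237). SLC18A2, the vesicular transporter, averaged 0.979 ± 0.482 CPM in shCon and 0.869 ± 0.142 CPM in shUBXN1 (SD, n = 2 each), with no call (edgeR adjusted p = 0.804). Of its annotated exon bases, 56.4% lie opposite another gene, and without use of strand such reads cannot be told apart.

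Other enzymes that degrade or conjugate amines changed in both directions, with 5 of 13 higher and 4 lower. SULT1A1, a phenol sulfotransferase, rose from 5.96 and 6.09 CPM to 17.1 and 17.3 CPM (log2 fold change 1.51, SE 0.133, edgeR adjusted p = 3.16e-07). It has near-identical copies, so its counts are uncertain. The copper amine oxidases AOC1, which degrades histamine and putrescine, and AOC3 rose from very low levels, AOC1 from 0.224 ± 0.105 CPM to 1.86 ± 0.514 CPM (edgeR adjusted p = 0.000212) and AOC3 from 0.115 ± 0.103 CPM to 0.792 ± 0.149 CPM (adjusted p = 0.00394, SD with n = 2 each). The call of AOC3 was lost without shCon R2 (adjusted p = 0.0914).

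The polyamine enzymes of this list include flavin-dependent relatives of monoamine oxidase. SMOX, spermine oxidase, fell from 43.9 and 50.3 CPM to 26.7 and 26.8 CPM (log2 fold change -0.81, SE 0.091, edgeR adjusted p = 3.51e-06). PAOX, which oxidises acetylated polyamines, rose with a log2 fold change of 1.01 (SE 0.28, adjusted p = 0.00672), but 61.0% of its exon bases are shared with another gene on the same strand, and its call was lost after GC trend removal and without shCon R2 (adjusted p = 0.0669). HNMT, which methylates histamine, fell by 0.60 on the log2 scale, RNLS by 0.63 and IL4I1, an amino acid oxidase, by 0.48. SAT1, which acetylates polyamines, had a log2 fold change of 0.13 and KDM1A, a histone demethylase of the amine oxidase family, of -0.13, neither passing the test. SAT1 did pass with total count scaling (0.21), and KDM1A without shUBXN1 R2 (-0.21).

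Of 12 tested enzymes that take up aldehydes, 6 were lower and 1 was higher. AKR1B10, an aldo-keto reductase frequently high in HCC, was at 3689 and 3776 CPM in shCon and 1499 and 1654 CPM in shUBXN1 (log2 fold change -1.24, SE 0.094, edgeR adjusted p = 7.5e-08). AKR1B1, aldose reductase, went from 1914 and 1940 CPM to 1063 and 1152 CPM (-0.80, SE 0.0867, adjusted p = 2.63e-06). ALDH3A1 went from 816 and 874 CPM to 376 and 420 CPM (-1.09, SE 0.0853, adjusted p = 1.05e-07), and ALDH3A2, the fatty aldehyde dehydrogenase, from 312 and 310 CPM to 127 and 132 CPM (-1.26, SE 0.0735, adjusted p = 6.22e-09). ALDH2, the mitochondrial enzyme that oxidises the aldehydes of dopamine and serotonin, fell by 0.37 on the log2 scale, from 372 and 382 CPM to 276 and 305 CPM, and AKR7A2 fell by 0.35, a call lost with DESeq2, with total count scaling and without shCon R2. ALDH1A1 was at 1812 and 1820 CPM in shCon and 1863 and 2093 CPM in shUBXN1 and did not pass the test (edgeR adjusted p = 0.267), though it did as higher on log2(TPM + 1), with total count scaling and without shUBXN1 R1 (0.18 to 0.21). ALDH7A1 was the member that rose, by 0.45.

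Genes for the removal of hydrogen peroxide in mitochondria and peroxisomes were lower in 4 of 8 cases and higher in 1. GPX1, a glutathione peroxidase, fell from 66.7 and 77.7 CPM to 32.2 and 30.6 CPM (log2 fold change -1.20, SE 0.0895, edgeR adjusted p = 6.59e-08), although 39.9% of its exon bases are shared with another gene. CAT, the peroxisomal catalase, fell by 0.60 on the log2 scale, GSR, glutathione reductase, by 0.52 and TXNRD2 by 0.29, a call lost under 6 of the 13 settings. PRDX5, a peroxiredoxin of mitochondria and peroxisomes, rose from 133 and 144 CPM to 300 and 318 CPM (1.16, SE 0.0773, adjusted p = 2.3e-08). PRDX3 (0.14) and GPX4 (0.08) did not pass the test. Both passed as higher on log2(TPM + 1) and with total count scaling, PRDX3 also without shUBXN1 R1, whereas GPX4 was lower after GC trend removal (-0.27, adjusted p = 0.0163). SOD2 was matched to no ID of the table and is not analysed here.

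Of 5 tested genes of riboflavin uptake and FAD synthesis, 3 were lower and 1 was higher, with the supply of FAD itself not measured. SLC52A2, a riboflavin transporter, fell by 0.56 on the log2 scale (edgeR adjusted p = 2.31e-05), FLAD1, which makes FAD, by 0.44 (adjusted p = 0.000184) and SLC25A32, a mitochondrial carrier linked to FAD and folate, by 0.33 (adjusted p = 0.00227). SLC52A2 lies partly opposite another gene, and SLC25A32 shares 69.7% of its exon bases with another gene on its strand. RFK, riboflavin kinase, rose by 0.33 on the log2 scale (adjusted p = 0.00317), a call lost without shCon R2 (adjusted p = 0.135).

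Of 13 other proteins that, like MAOA and MAOB, are tail-anchored in the outer mitochondrial membrane, 6 were lower and 3 higher. TOMM5, a small subunit of the protein import pore, fell from 140 and 155 CPM to 56.8 and 59.1 CPM (log2 fold change -1.35, SE 0.0788, edgeR adjusted p = 6.26e-09), and CYB5B, an outer membrane cytochrome b5, from 223 and 222 CPM to 104 and 112 CPM (-1.04, SE 0.0742, adjusted p = 4.11e-08). They share 18.9% and 24.1% of their exon bases with other genes on their strand. The remaining falls were between -0.42 (TOMM22) and -0.29 (MAVS, the antiviral adaptor, whose call was lost without shCon R2 and on the TPM scale), with SYNJ2BP (call lost on the TPM scale) and TOMM6 (lost without shCon R2) between them. All exon bases of TOMM6 are shared with another gene on its strand, so its value cannot be assigned to it alone. FIS1 and MFF, receptors of mitochondrial fission, rose by 0.41 and 0.31, and RHOT2, which links mitochondria to motors, by 0.23. The FIS1 call was lost after GC trend removal (adjusted p = 0.0785) and the MFF call without shCon R2 (adjusted p = 0.0916). That of RHOT2 was lost without shCon R1, shCon R2 or shUBXN1 R1, and its log2 fold change was -0.20 after GC trend removal. BCL2L1, an inhibitor of apoptosis, had a log2 fold change of 0.13 that did not pass the test, passed as higher on log2(TPM + 1), with total count scaling and without shUBXN1 R1, and was -0.057 after GC trend removal. Another gene lies opposite 41.3% of its exon bases.

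**Figure D3:**
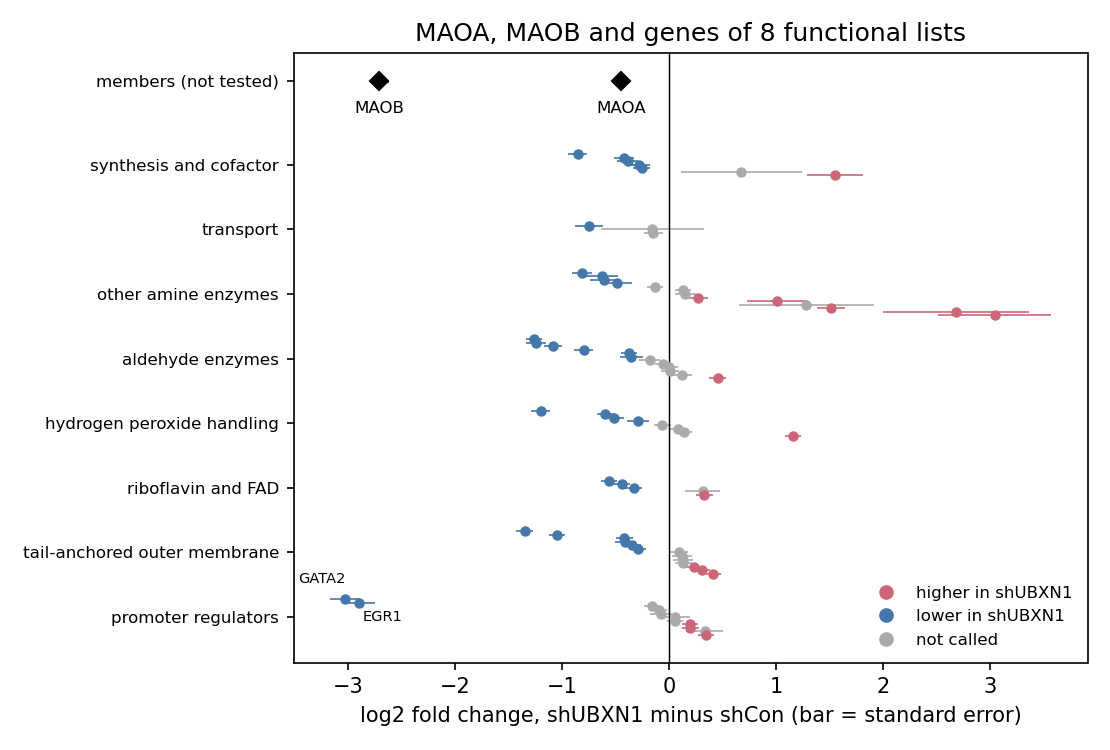
Log2 fold change, shUBXN1 minus shCon (horizontal axis, bars are SE), for MAOA and MAOB as black diamonds and for the tested genes of the 8 lists as points coloured by call at an edgeR adjusted p under 0.05. MAOB at -2.72 lies left of all list genes but GATA2 and EGR1, and DBH, at 0 counts in shCon, is left out.

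The factors known to act at the promoters of the pair were mostly near the shCon level, apart from 2. Of 11 tested, 3 were higher and 2 lower. SP1 (log2 fold change 0.06, SE 0.074) and SP3 (-0.09, SE 0.0767), which bind GC boxes, did not pass the test, though SP3 did as lower without shUBXN1 R2 (-0.19), nor did KLF11 (0.06, SE 0.14), a Krüppel-like factor. JUN, an AP-1 subunit, rose from 158 and 166 CPM to 201 and 211 CPM (0.35, edgeR adjusted p = 0.00106), a call lost after GC trend removal (adjusted p = 0.16). NR3C1, the glucocorticoid receptor, rose by 0.20 on the log2 scale (adjusted p = 0.0439), a call lost with DESeq2, without the filter on low counts and without shCon R1, shCon R2 or shUBXN1 R2.

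EGR1 and GATA2, both named after their values were seen, were the 2 lower members. EGR1, an immediate early zinc finger factor, was at 37.3 and 48.7 CPM in shCon and 4.97 and 6.54 CPM in shUBXN1 (log2 fold change -2.90, SE 0.152, edgeR adjusted p = 2.49e-09). GATA2, a zinc finger factor of blood and endothelial cells, was at 23.8 and 22.1 CPM in shCon and 2.87 and 2.73 CPM in shUBXN1 (-3.03, SE 0.144, adjusted p = 9.98e-10). For both factors the shUBXN1 libraries were far below the shCon libraries, as they were for MAOB. Whether either factor takes part in the change of MAOB was not tested.

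The few expressed genes within 1 Mb of the pair were slightly higher in shUBXN1, and the nearest beyond it on the side of MAOA were lower. Within 1 Mb, measured to the nearest edge, 24 other annotated genes were in the table, of which 6 are protein-coding, 8 had any count and 2 were tested. FUNDC1, a mitophagy receptor of the outer mitochondrial membrane 641.2 kb beyond MAOB, was at 26.2 and 27.2 CPM in shCon and 30.7 and 34.6 CPM in shUBXN1 (log2 fold change 0.29, SE 0.0942, edgeR adjusted p = 0.0172). KDM6A, a histone demethylase at 990.7 kb, was at 71.0 and 68.3 CPM in shCon and 85.6 and 81.7 CPM in shUBXN1 (0.26, SE 0.0739, adjusted p = 0.00735). Both were thus higher, beside 28.0% of all genes, and neither reached a 2-fold change. FUNDC1 lost its call with DESeq2 and without shCon R1, shCon R2 or shUBXN1 R2, and KDM6A without shCon R2. The nearest protein-coding gene, NDP, 66.3 kb away, had 10 counts over all libraries. On the side of MAOA the nearest tested protein-coding genes were more distant. CASK, a scaffold kinase at 1731.4 kb, was lower (-0.84, SE 0.0812, adjusted p = 8.14e-07), as was DDX3X, an RNA helicase at 2290.4 kb (-0.30, SE 0.0823, adjusted p = 0.00672), whose call was lost without shCon R1 or shCon R2.

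The genes whose levels varied most like those of the pair over the 4 libraries were found among 13510 tested protein-coding genes, by the root mean square difference of log2(CPM + 1) after centring each gene. For MAOA they included RNF121 (0.0083), LONP2 (0.0091), SMURF1 (0.0104) and HEATR1 (0.0106), with log2 fold changes of -0.46 to -0.42. For MAOB they were GATA2 (0.0297), then ITIH2 (0.0943), HABP2 (0.1), GLIPR1 (0.1325) and CPLX2 (0.1325). ITIH2 and HABP2 encode plasma proteins made by hepatocytes, and their log2 fold changes were -2.56 and -3.60, those of GLIPR1 and CPLX2 being -3.18 and -2.53. The differences were larger for MAOB than for MAOA. The added 1 shrinks the change of genes with low levels, so this order depends on it. By fitted log2 fold change, ITIH2 and CPLX2 were closer to MAOB (-2.72) than GATA2 (-3.03) was.

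Some markers of other cell types were detected, and some moved with the groups. Of 7 markers of monoaminergic neurons or platelets, only SLC18A2 had at least 10 counts in every library, and their summed level was 0.878 to 1.66 TPM. Of 6 fibroblast markers only LUM did, with a summed level of 25.2 and 24.8 TPM in shCon and 12.6 and 13.7 TPM in shUBXN1 that was almost all LUM. DCN also fell, from 17 and 13 counts to 2 and 1, while COL1A1 rose from 10 and 4 counts to 58 and 59 (edgeR log2 fold change 3.11, adjusted p = 5.83e-05). Of 4 endothelial markers PECAM1 and KDR did, and all 4 summed to 15.2 TPM in both shCon libraries and 31.9 and 32.1 TPM in shUBXN1. KDR went from 5.09 and 5.35 TPM to 17.9 and 19.5 TPM, and PECAM1 only from 9.97 and 9.61 TPM to 13.7 and 12.4 TPM. Of 5 immune markers only CD68 did, a lysosomal protein of macrophages also made by other cells, at 98.4 and 102 TPM in shCon and 92.7 and 83.2 TPM in shUBXN1, and CD3E was at 0. The part of these changes, of the falls of hepatocyte genes such as ALB, TF, APOB, TTR and FGB, and of the higher mitochondrial share in the values of MAOA and MAOB was not tested.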

How the data were processed

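Processing began from the expected counts per gene that the authors deposited, not normalized and mostly whole (62.4% to 64.6% of values above 0 per library), with a gene length in bases. The paper's methods name a TruSeq kit, paired ends, GRCh38, Hisat2, TPM and limma, and a control called shRFP. The labels name shCon and a VAHTS kit, and the submitters' processing notes name GRCh37, HISAT2 2.0.4 and StringTie 1.3.0. The counting tool, the annotation release and whether strand was used are not given in the sources used here, so overlapping genes are uncertain.

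Of 61541 gene IDs, 61369 (99.7%) matched a symbol. Counts were rounded, filtered with filterByExpr, scaled with TMM and tested over 16863 genes by edgeR 4.0.16 (glmQLFit, then glmQLFTest; R 4.3.3), with group as the only term and Benjamini-Hochberg adjustment. SE is the log2 fold change over the square root of F. TPM was computed from the deposited lengths. The biological coefficient of variation was 0.0711. On simulated counts of the comparison of shUBXN1 with shCon over 16451 genes, 86 of 100 genes changed by 1 and 99 of 100 changed by 2 on the log2 scale were recovered, and 21 others were called. The changed genes were drawn from those above 1 CPM, as many up as down, with dispersions fitted to these data. Far fewer genes changed there than were called in the real comparison, and recovery at lower levels was not measured. The counts of R1 and R2 differed beyond sampling noise in both groups (chi-square over its degrees of freedom 3.79 for shCon, 8.37 for shUBXN1), so neither pair was 1 library deposited 2 times.

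MAOA, MAOB and the gene lists, written by hand, were chosen with earlier results of these data known. Genes named were MAOA, MAOB, UBXN1, up to 4 tested genes per list with the highest mean CPM, the nearest 2 tested protein-coding genes on each side of the pair and, for each of the pair, the 5 tested protein-coding genes of the smallest root mean square difference. Some genes that this rule names are not reported here. Alternatives were DESeq2 1.42.0, limma 3.58.1 (voom, and log2(TPM + 1)), other scalings and filters, a replicate block, GC trend removal, each library left out, other call rules and, for the share, other lengths. Promoters and motif counts came from RefSeq sequences on GRCh38.p14, and positions from GENCODE 44.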

Additional observations from a re-analysis of the deposited data

How the results depend on the processing

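The log2 fold changes of MAOA and MAOB kept their sign in every alternative run. That of MAOA was -0.37 on log2(TPM + 1) and -0.36 with total count scaling, and -0.48 to -0.43 with 1 library left out. That of MAOB was -2.54, -2.63 and, after GC trend removal, -2.81, and -2.75 to -2.70 with 1 library left out. Total count scaling moved the median of all genes from 0.02 to 0.10. The difference in MAOB share was -27.2 points with all annotated exon bases (chosen after seeing the data), and -37.9 to -36.4 with 1 library left out. Of the list genes, the 16 higher became 10 after GC trend removal, 7 at the 2-fold rule and 9 (without shCon R2) to 21 with 1 library left out. The 31 lower became 8 at the 2-fold rule and 25 to 33 with 1 library left out. The 2 neighbours called higher became 1 with DESeq2, 0 at the 2-fold rule, 0 within 0.5 Mb, where no gene was tested, and 0 (without shCon R2) to 2 with 1 library left out. The rule for naming genes gave 45 others, with 585 values under 13 settings. Of these values, 541 kept direction and call, 26 lost and 15 gained a call and 3 changed sign. The changes of sign were SLC18A2 (0.43 without shCon R2) and, after GC trend removal, GPX4 (-0.27) and BCL2L1 (-0.057). Genes named only after their values were seen are outside this count. Among them, RHOT2 also changed sign after GC trend removal (-0.20). The log2 fold change of SLC18A2, not called, ran from -0.60 to 0.43 with 1 library left out. The causes were not tested.

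Replicate numbers were shared only as numbers (correlation of R1 deviations 0.0775, with only 2 pairs). With the replicate block, MAOA was -0.45, MAOB -2.72, 17 list genes were higher and 31 lower, 2 neighbours were higher, and 5000 and 5023 of all genes were called in place of 4727 and 4751. With 2 libraries per group the spread rests on few values, and with 284 to 313 counts of MAOB in shUBXN1 its counting error there was 5.65% and 5.93%.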
